A study of Mus musculus with 15 samples.

Results

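Very long genes were described here as the listed genes whose span, from first to last base and introns included, was 200 kb or more, and whose reads averaged 50 or more over the 15 libraries. Genes of the cadherin, ephrin receptor, semaphorin, Robo, Slit, Unc5, neurexin, neuroligin, glutamate receptor, Rbfox, collagen, myosin and kinesin families were left out by the start of their symbols. Of 55228 listed genes, 1102 spanned 200 kb or more, and 505 of these were kept. The members were thus selected on span and on their mean read number, and neither is a finding here. The 15 libraries came from 1 clonal mouse embryonic stem cell line, 81K1, a derivative of OG2 that carries an shRNA against Smarcb1 at the Rosa26 locus under a doxycycline-dependent promoter, grown with serum and LIF on gelatine. Untreated cells (48 h ctrl and 240 h ctrl) and cells given 1 µg/ml doxycycline for 48 h, 72 h or 240 h (48 h kd, 72 h kd and 240 h kd) were sequenced, with 3 libraries per group. All groups carry the shRNA insertion, and no doxycycline-treated line without it was analysed here. At 72 h there was no control of its own, so the 48 h ctrl libraries served both comparisons, which therefore share 3 libraries. The labels do not say that replicates came from separate cultures, so p-values measure the spread among these libraries, which may be technical.

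Smarcb1 is a core subunit of the esBAF complex, an ATP-driven remodeller that moves nucleosomes at promoters and enhancers. Most of a very long gene is intron. RNA polymerase must cross the whole span to make a transcript, which makes such genes slow to transcribe and dependent on elongation and on topoisomerases. In mammals many of them encode adhesion, cytoskeletal, signalling and synaptic proteins, and several lie at common fragile sites, chromosome regions that break under replication stress.

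The promoters of 6 members are shown, the 6 with the largest minimum change over 48 h, 72 h and 240 h among genes called in 1 direction at each time and holding few reads of other genes. Ablim1, Prickle2, Arhgef28 and Tns1 were lower in kd and Pdzd2 and Arhgap42 were higher. Each sequence runs 5′ to 3′ on the minus strand, from 250 bases before to 50 bases after a RefSeq start (build GRCm38.p6). Capitals mark the GC box GGGCGG on either strand (GGGCGG or CCGCCC).
Ablim1, chr19:57314870-57315169: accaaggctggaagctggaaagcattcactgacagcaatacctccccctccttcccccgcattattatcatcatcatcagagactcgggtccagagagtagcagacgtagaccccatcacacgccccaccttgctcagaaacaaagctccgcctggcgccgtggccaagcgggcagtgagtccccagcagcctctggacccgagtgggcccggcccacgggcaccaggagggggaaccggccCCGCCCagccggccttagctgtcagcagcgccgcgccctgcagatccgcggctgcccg
Prickle2, chr6:92706135-92706434: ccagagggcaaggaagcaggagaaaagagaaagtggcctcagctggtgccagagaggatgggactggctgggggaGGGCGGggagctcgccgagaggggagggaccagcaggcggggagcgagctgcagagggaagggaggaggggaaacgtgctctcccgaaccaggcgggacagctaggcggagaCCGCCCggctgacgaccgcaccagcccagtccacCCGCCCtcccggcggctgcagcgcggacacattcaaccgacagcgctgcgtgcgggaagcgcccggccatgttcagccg
Arhgef28, chr13:98206116-98206415: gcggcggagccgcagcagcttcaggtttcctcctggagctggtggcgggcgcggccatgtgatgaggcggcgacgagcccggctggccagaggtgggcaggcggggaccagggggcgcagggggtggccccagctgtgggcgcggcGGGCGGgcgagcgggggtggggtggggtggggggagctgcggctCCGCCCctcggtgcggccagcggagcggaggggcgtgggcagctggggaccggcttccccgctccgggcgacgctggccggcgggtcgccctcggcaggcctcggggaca
Tns1, chr1:74124499-74124798: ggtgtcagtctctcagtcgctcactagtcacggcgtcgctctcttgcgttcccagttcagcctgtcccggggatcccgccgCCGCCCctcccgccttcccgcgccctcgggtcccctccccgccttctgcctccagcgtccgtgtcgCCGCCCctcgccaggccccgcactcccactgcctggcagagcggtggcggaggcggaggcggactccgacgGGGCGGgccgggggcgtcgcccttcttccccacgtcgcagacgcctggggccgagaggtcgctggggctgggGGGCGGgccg
Pdzd2, chr15:12739843-12740142: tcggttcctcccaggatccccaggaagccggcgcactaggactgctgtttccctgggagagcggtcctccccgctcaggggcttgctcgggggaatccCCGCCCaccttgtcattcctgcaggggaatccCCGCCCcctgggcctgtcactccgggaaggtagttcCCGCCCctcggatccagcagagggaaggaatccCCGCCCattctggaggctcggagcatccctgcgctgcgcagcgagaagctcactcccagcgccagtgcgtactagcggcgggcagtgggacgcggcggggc
Arhgap42, chr9:9238978-9239277: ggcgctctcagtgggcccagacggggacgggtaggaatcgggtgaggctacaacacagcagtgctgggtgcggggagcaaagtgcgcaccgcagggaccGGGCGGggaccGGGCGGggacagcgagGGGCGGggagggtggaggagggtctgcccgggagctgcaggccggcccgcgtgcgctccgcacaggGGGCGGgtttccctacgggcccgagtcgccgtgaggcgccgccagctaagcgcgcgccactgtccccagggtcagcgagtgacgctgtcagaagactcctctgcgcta

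All 6 windows held the GC box, from 1 copy at Ablim1 to 4 copies each at Pdzd2, Tns1 and Arhgap42. None held a CCAAT box, a TATA box (TATAAA), an AP-1 site (TGACTCA) or an E-box (CACGTG) on either strand, and CG dinucleotides numbered 20 (Ablim1) to 37 (Tns1). A RefSeq promoter was found for 367 of the 505 members. The GC box stood in 63.2% of these windows, in 66.7% of 8952 promoters of genes under 200 kb with at least 50 reads, and in 35.7% of all 32851 promoters in the table. CCAAT stood in 33% of the members' windows, 39.6% of the shorter genes' and 37.4% of all. TATAAA stood in 5.99%, 6.3% and 13.6%, TGACTCA in 2.72%, 3.04% and 5.2%, and CACGTG in 7.36%, 10.9% and 7.15%. The median number of CG dinucleotides was 21 in the members and in the shorter genes, against 7 in all promoters. A letter match describes the window only.

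The libraries held 11074998 to 14515300 reads. Smarcb1 was at 3.41, 3.46 and 3.93 FPKM in 48 h ctrl and at 3.31, 3.55 and 3.40 FPKM in 240 h ctrl. It was at 0.503, 0.820 and 0.618 FPKM in 48 h kd, 0.541, 0.639 and 0.512 FPKM in 72 h kd and 0.721, 0.621 and 0.638 FPKM in 240 h kd, that is, at 18%, 15.7% and 19.3% of its control mean at 48 h, 72 h and 240 h kd. All 12 stem cell markers examined had reads in every group, with Pou5f1 at 238 to 337 FPKM and Nanog at 59.1 to 83.7 FPKM. Their summed level was 5212 to 5270 RPM (reads scaled to library size) in 240 h kd and 5908 to 6655 RPM in the other groups, and 3 of the 12 were called lower at 240 h, with a median log2 change of -0.19. Markers of other cells were low but not constant. The summed level of 8 fibroblast markers was 6.99 to 9.99 RPM in the other groups and 20.7 to 25.04 RPM in 240 h kd, with Lum and Postn at 0 in both ctrl groups and in 48 h kd. For 8 trophoblast markers the sums were 70.8 to 90.0 RPM in ctrl, 53.3 to 58.1 RPM at 48 h kd, 153 to 158 RPM at 72 h kd and 114 to 118 RPM at 240 h kd. For 8 primitive endoderm markers they were 33.3 to 47.0 RPM in ctrl, 21.6 to 24.0 RPM at 48 h and 72 h kd and 48.2 to 58.4 RPM at 240 h kd. For 10 neural markers they were 228 to 254 RPM in ctrl, 258 to 294 RPM at 48 h kd, 199.5 to 217 RPM at 72 h kd and 321 to 335 RPM at 240 h kd, with Neurog2 at 0 in all groups but 240 h kd. The sums and the single genes did not always point the same way. Of 4 trophoblast markers tested none was higher and 3 were lower at 48 h, 1 and 1 at 72 h and 3 and 1 at 240 h, with medians of -0.76, -0.21 and 1.11. Of 7 neural markers tested 2 were higher and 3 lower at 48 h, 1 and 4 at 72 h and 3 and 1 at 240 h, with medians of -0.44, -0.88 and 0.26. For 6 primitive endoderm markers the counts were none and 2, none and 2, and 3 and 1 (medians -0.26, -0.08 and 0.60), and for 3 fibroblast markers 1 and 1, 2 and 1, and 1 and none (medians 0.05, 0.61 and 0.33). The part of these markers in the results was not tested, and in bulk RNA fewer cells of a type and less RNA per cell cannot be told apart. The library 48 h kd replicate 2 stood apart, in which mitochondrial genes took 2.35% of the reads (0.469% to 1.81% elsewhere). The total counts, the overlap of 48 h with 240 h and the role lists at 48 h are also given without it. To a lesser degree 240 h ctrl replicate 3 also differed, at 0.469% against 1.35% and 1.17% in its group. Its chi-square per degree of freedom against these 2 libraries was 8.89 and 5.02, and 2.23 between them. Without 240 h ctrl replicate 3, 48 members were called higher and 70 lower at 240 h.

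The members had few reads per kilobase. Their median level was 0.0873 FPKM, from 0.00271 FPKM (Ptprd) to 3.68 FPKM (a, the agouti gene), against a median of 0.317 FPKM in 1039 genes of 100 to 200 kb with at least 50 reads. Only 35 members reached 0.5 FPKM and 274 lay under 0.1 FPKM. The rule set a floor of 50 reads, and the median was 342 reads per library in the members, 431 in 9195 genes under 50 kb, 611 at 50 to 100 kb and 534 at 100 to 200 kb. The deposited FPKM divides by the whole span, and exons made up a median of 2.86% of it in the members and 25.7% in the genes under 50 kb. The levels below are therefore given in RPM, the FPKM multiplied by the span in kilobases. Together the members took 3.17% to 3.39% of the gene-assigned reads of each library.

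Of the members, 483 were protein coding, 9 were long noncoding RNAs and 13 had no match in GENCODE release M21. They lay on 20 chromosomes, with 41 on chromosome 1, 40 on chromosome 2 and 24 on the X chromosome. Reads were counted over the whole span and without strand, so a listed gene inside or across a member shares its reads. No listed gene overlapped 61 members, and in 402 the most-read overlapping gene held less than 25% of the member's reads. The 5 longest members were Gm20388 (4435 kb), Fgfr2 (2961 kb, a receptor of fibroblast growth factors), Ptprd (2271 kb, a receptor tyrosine phosphatase), Dmd (2257 kb, dystrophin) and Cntnap2 (2245 kb, a neurexin-related adhesion protein). Genes nested in Gm20388 held 89.6% of its reads and those nested in the listed span of Fgfr2 held 73.0%, so most of their reads also counted for other genes. The 5 members with the most reads were Gm20388, Fgfr2, a, Sox2ot and Ulk4. Eif2s2 held 67.6% of the reads of a, Sox2 held 87.1% of those of Sox2ot, and the overlapping Ctnnb1 had 139% of those of Ulk4. None of these 5 was called in any kd comparison. Among members with little overlap the highest levels per length were those of the focal adhesion protein gene Tns3 (1.65 FPKM), the cytoskeletal linkers Macf1 (1.61 FPKM) and Dst (1.16 FPKM), and the chromatin remodeller Chd9 (1.21 FPKM), a set chosen after these values were seen.

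Just inside the span limit were Pcbp3 (200031 bases), Umad1 (200183 bases) and 4930402H24Rik (200207 bases), and just outside were Atp9b (199920 bases), Morc1 (199664 bases) and Clec16a (199540 bases). Just inside the read limit were Kcnq3 (50.1 reads), Sh3rf3 (50.7 reads) and Stxbp6 (50.9 reads), and just outside were Cubn (49.1 reads), Adgrl3 (48.4 reads) and Usp29 (48.3 reads).

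The first question was how many very long genes changed after Smarcb1 knockdown, and when. Each comparison was fitted with limma on log2(RPM + 0.25) over the 16370 genes averaging 10 reads or more. Calls required both a change beyond 0.58 on the log2 scale in either direction and, after adjustment, p under 0.05. At 48 h, 36 members were called higher and 31 lower, which is 7.13% and 6.14% of them, against 4.26% and 4.78% of all genes tested. At 72 h the numbers were 45 higher and 72 lower, 8.91% and 14.3% of the members against 11.7% and 10% of all genes. At 240 h, 49 were higher and 69 lower, 9.7% and 13.7% against 8.92% and 7.89%. Of the 12574 genes that also had at least 50 reads, as the members do, 3.45% were higher and 3.62% lower at 48 h, 10.1% and 7.23% at 72 h, and 6.12% and 6.44% at 240 h. Calls lower exceeded calls higher among the members at 72 h and 240 h. This held with the fold threshold. Without it the counts were near even, 165 higher and 170 lower at 72 h and 145 and 146 at 240 h. The median change over all members was -0.01 at 72 h and 0.01 at 240 h. Among all genes tested there were more calls higher at both times, but among those with at least 50 reads this held at 72 h alone. Without 48 h kd replicate 2 the 48 h counts were 31 higher and 33 lower. In all, 181 of the 505 members were called in at least 1 of the 3 kd comparisons and 324 in none (178 called without that library). The 181 were 35.8% of the members, against 31.6% of all genes tested and 24.6% of those with at least 50 reads.

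In 240 h ctrl against 48 h ctrl 1 member was higher (Ttn, titin, by 1.03 ± 0.10, where Gm13938 held 33.5% of the reads) and 4 were lower, against 0.843% and 0.489% of all genes. The 4 were Chst11 by -0.65 ± 0.12, Ssbp2 by -0.60 ± 0.16, Zfp521 by -0.64 ± 0.18 and Frmd5 by -0.60 ± 0.10 (log2 fold change ± standard error). The call set of this comparison was unstable, with 3 to 9 calls as single libraries were left out (9 when 48 h ctrl replicate 1 was dropped, and 3 when either 48 h ctrl replicate 3 or 240 h ctrl replicate 2 was). Between 48 h kd and 72 h kd, 18 members were higher and 53 lower, 3.56% and 10.5% of the members against 6.53% and 6.15% of all genes, and without 48 h kd replicate 2 the counts were 18 and 44. No library enters both the 48 h and the 240 h comparison, and 23 members were higher at both times, 63.9% of those higher at 48 h and 46.9% of those higher at 240 h. Of those lower, 16 were shared, 51.6% and 23.2% of each list. With 48 h kd replicate 2 left out, an alternative chosen after seeing the data, 22 were higher at both times (71% and 44.9%) and 17 lower (51.5% and 24.6%). Over all genes tested 360 were higher at both times (51.6% and 24.7%) and 442 lower (56.5% and 34.2%).

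The called shares were set against span among genes with at least 50 reads. Classes of 200 kb or more hold members only, while the shorter classes also hold the families left out of the members. In the 16 left-out genes of 200 kb or more with at least 50 reads, 18.8% were higher and 25% lower at 72 h and at 240 h. Of genes under 50 kb, 6.45% were lower at 72 h and 5.67% at 240 h. The shares were 7.2% and 6.6% in 1819 genes of 50 to 100 kb, and 10.5% and 9.24% in genes of 100 to 200 kb. In 261 members of 200 to 300 kb they were 14.9% and 11.5%, in 159 of 300 to 500 kb 12.6% and 16.4%, and in 85 of 500 kb or more 15.3% at both times. The shares called higher at 72 h were 10.3%, 9.57%, 9.91%, 8.43%, 11.9% and 4.71% from the shortest class to the longest, and those at 240 h were 5.86%, 5.61%, 7.31%, 8.05%, 13.2% and 8.24%. At 48 h the order was another one, with shares lower of 2.88%, 4.73%, 6.74%, 8.43%, 3.77% and 3.53% and shares higher of 3.27%, 3.08%, 3.85%, 4.98%, 10.7% and 7.06%. In the longest class these were 3 of 85 genes lower and 6 higher. As single libraries were left out, 1 to 3 were lower and 4 to 7 higher. The part of the read numbers, which differ between these classes as given above, was not tested.

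The median change of the longest members was followed by library. Relative to the mean of 48 h ctrl, the median log2 difference over the 85 members of 500 kb or more was -0.13, -0.11 and -0.14 in the 72 h kd libraries and -0.10, -0.15 and -0.14 in the 240 h kd libraries. It was 0.02, 0.17 and 0.05 in 48 h kd, where 0.17 is the library that stood apart, and 0.00, -0.03 and -0.07 in 240 h ctrl. The 72 h kd libraries all lay below those of 48 h kd and of both controls. The median was -0.13 for 72 h kd against 48 h ctrl, with 58 of 85 genes lower, and -0.20 for 72 h kd against 48 h kd, with 69 of 85 lower, while over all genes tested both medians were 0.01. Without 48 h kd replicate 2 the second median was -0.15, with 67 genes lower, and with 240 h ctrl in place of 48 h ctrl the first was -0.08, with 52 lower. At 240 h against its own control the median was -0.09, and 48 of 85 were lower. Members of 200 to 300 kb and of 300 to 500 kb had medians of -0.00 and 0.03 for 72 h kd against 48 h ctrl. For 72 h kd against 48 h kd their medians were 0.02 and -0.06, and at 240 h against its control 0.01 and 0.05. Of the 85, 13 were called lower in 72 h kd against 48 h kd. Among them were Tenm1 by -1.54 ± 0.19, Dpp6 by -1.48 ± 0.18, Dgkb by -1.45 ± 0.15, Nrg1 by -1.30 ± 0.15, Lrp1b by -1.24 ± 0.16, Adamtsl1 by -1.11 ± 0.16, Ctnnd2 by -0.95 ± 0.18, and, between -0.76 and -0.63, Ptprd, Gpc6, Ank2, Tenm3 and Zmat4. Ank3, which anchors membrane proteins to the axonal cytoskeleton, was the 1 gene called higher, by 0.95 ± 0.06.

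**Figure D1:**
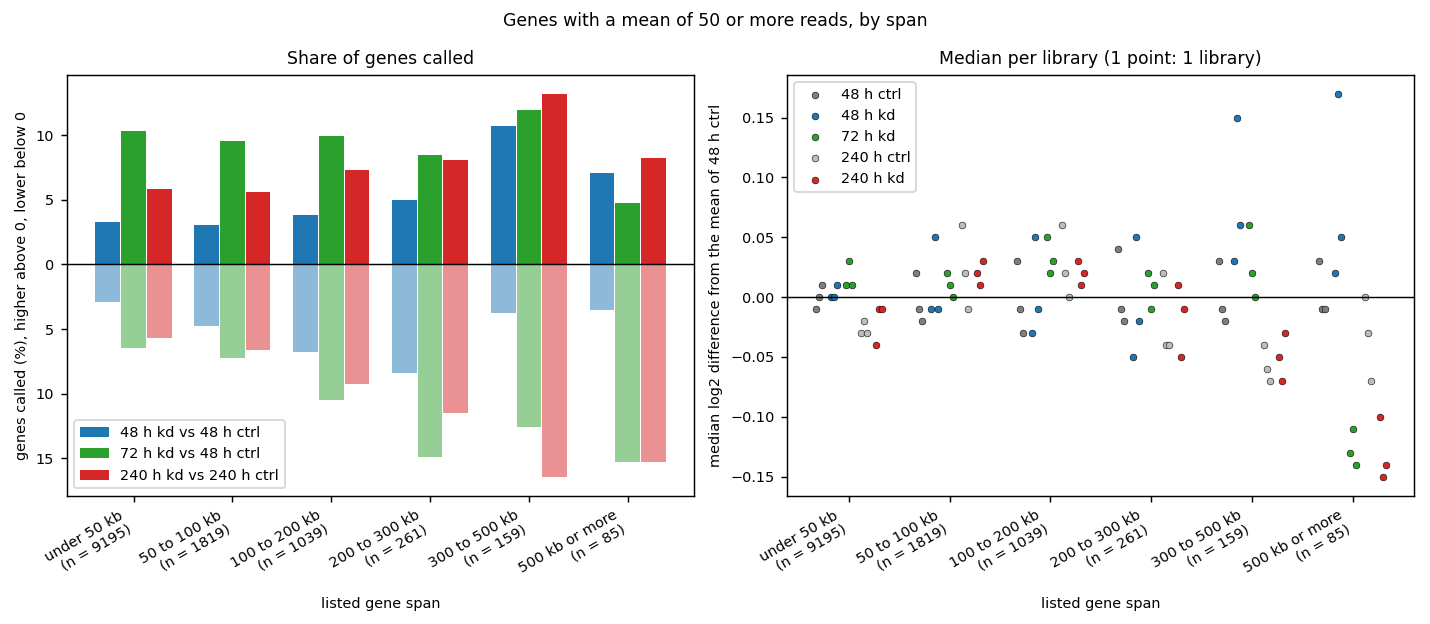
Left, share of genes (%) called higher (above 0) or lower (below 0, paler) in each kd comparison, by listed span, for genes averaging 50 reads or more. Classes of 200 kb or more hold members only, and the shorter classes hold genes of every family. Right, median log2 difference of each class from the mean of 48 h ctrl, 1 point per library. At 500 kb or more the 72 h kd and 240 h kd libraries lie between -0.15 and -0.10, and 1 library of 48 h kd lies at 0.17.

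In all, 13 members were called lower and 17 higher at each of the 3 times, a count in which 48 h and 72 h share their controls. That is 2.57% and 3.37% of the members, against 2.17% and 1.7% of all genes tested and 1.67% and 1.5% of those with at least 50 reads. Those in which another listed gene held less than 25% of the reads, up to 12 in each direction, are described first. The largest fall was that of Ablim1 (chromosome 19, 57032733 to 57314919), an actin-binding LIM protein. Its level was 32.95, 32.1 and 32.3 RPM in 48 h ctrl, 5.47, 6.57 and 5.87 RPM in 48 h kd, 2.58, 3.48 and 2.64 RPM in 72 h kd, 33.1, 33.5 and 29.4 RPM in 240 h ctrl and 2.12, 2.14 and 1.98 RPM in 240 h kd. Every kd library lay below every control library. The log2 fold changes fitted by limma were -2.40 ± 0.10, -3.39 ± 0.12 and -3.79 ± 0.11 (adjusted p = 1.55e-08, 5.43e-18 and 4.18e-14). In mean RPM, without the pseudocount, 18.4%, 8.93% and 6.51% of the control mean was left.

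Prickle2 (chromosome 6, 92370908 to 92706155), a planar cell polarity protein, was at 7.95, 7.49 and 7.15 RPM in 48 h ctrl and 8.12, 7.47 and 8.60 RPM in 240 h ctrl. It was at 3.47, 2.39 and 2.80 RPM in 48 h kd, 2.42, 1.05 and 1.73 RPM in 72 h kd and 2.28, 2.41 and 2.72 RPM in 240 h kd, with changes of -1.32 ± 0.16, -2.03 ± 0.20 and -1.61 ± 0.15. Arhgef28, an exchange factor for RhoA, stood at 11.2, 11.6 and 10.9 RPM in 48 h ctrl and 12.9, 11.6 and 11.2 RPM in 240 h ctrl. It had 5.64, 4.26 and 5.33 RPM in 48 h kd, 4.22, 5.42 and 4.97 RPM in 72 h kd and 5.92, 5.44 and 5.29 RPM in 240 h kd. Its changes were -1.11 ± 0.14, -1.17 ± 0.13 and -1.07 ± 0.12, and the difference between 240 h and 48 h was not called, at 0.04 ± 0.17 (adjusted p = 0.887).

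Tns1, a tensin that links integrins to actin, was at 24.9, 22.7 and 25.4 RPM in 48 h ctrl and 34.97, 32.1 and 29.7 RPM in 240 h ctrl, with no kd library above 17.3 RPM. It fell by 1.06, 1.10 and 1.07 on the log2 scale. Cobl (chromosome 11, 12236608 to 12464960), which nucleates actin filaments, had far more reads. It was at 283, 279 and 281 RPM in 48 h ctrl, 171, 171 and 176 RPM in 48 h kd, 112, 102 and 105 RPM in 72 h kd, 314, 294 and 313 RPM in 240 h ctrl and 40.8, 38.4 and 39.95 RPM in 240 h kd. The change grew from -0.70 ± 0.05 at 48 h and -1.40 ± 0.04 at 72 h to -2.94 ± 0.05 at 240 h, and the difference between 240 h and 48 h was -2.24 ± 0.06 (adjusted p = 6.63e-14).

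The other members of this kind called lower at all 3 times were Ctnnd2 (delta-catenin, of neuronal junctions), Nav1 (a microtubule-binding protein), Igsf21 (an immunoglobulin superfamily adhesion protein), Psd3 (an exchange factor for ARF6) and Chst11 (a chondroitin sulfotransferase). Ctnnd2 changed by -0.85, -1.80 and -0.89 and Nav1 by -0.65, -0.93 and -0.87. Igsf21 changed by -0.62, -0.92 and -2.12 and Psd3 by -0.60, -0.83 and -0.63. Chst11 changed by -0.63, -0.63 and -0.69, but its 72 h value was 0.02 against 240 h ctrl, where it was lower than in 48 h ctrl. Psd3 missed the threshold at 48 h without 48 h kd replicate 3 (-0.49), 48 h ctrl replicate 1 (-0.52) or 48 h ctrl replicate 3 (-0.54), and at 240 h without replicate 1 of either group (-0.57). Igsf21 missed it at 48 h without 48 h kd replicate 1 (-0.55) or 48 h ctrl replicate 2 (-0.58). Chst11 missed it at 72 h without 72 h kd replicate 3 (-0.58), and at both 48 h and 72 h with a pseudocount of 1 RPM (-0.57 each). With that pseudocount Psd3 missed it at 48 h (-0.54) and 240 h (-0.56), and with no read minimum at 48 h (adjusted p = 0.121 by limma).

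Among the rises called at all 3 times, Pdzd2 (chromosome 15, 12359711 to 12739924), a protein of several PDZ domains, was the largest at 48 h. It was at 20.3, 18.3 and 15.3 RPM in 48 h ctrl, 78.7, 88.8 and 78.6 RPM in 48 h kd, 46.6, 45.7 and 40.5 RPM in 72 h kd, 26.3, 26.3 and 25.5 RPM in 240 h ctrl and 76.3, 73.8 and 71.1 RPM in 240 h kd. Every kd library lay above every control library. The changes were 2.18 ± 0.10, 1.30 ± 0.08 and 1.49 ± 0.06 (adjusted p = 2e-08, 1.16e-12 and 1.4e-12).

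Arhgap42, a GTPase-activating protein for RhoA, rose from 19.1, 21.4 and 16.8 RPM in 48 h ctrl to 36.5, 41.3 and 38.1 RPM in 48 h kd and 61.1, 58.7 and 56.9 RPM in 72 h kd. It was at 20.98, 20.6 and 20.1 RPM in 240 h ctrl and 59.9, 56.6 and 58.01 RPM in 240 h kd. Every kd library was above all control libraries, and the changes were 1.01 ± 0.09, 1.62 ± 0.07 and 1.49 ± 0.06. Sfmbt2 (chromosome 2, 10370510 to 10595253), a Polycomb-group protein known for its role in trophoblast, was at 43.5, 40.05 and 38.3 RPM in 48 h ctrl, 74.9, 78.6 and 69.3 RPM in 48 h kd and 87.9, 77.96 and 84.5 RPM in 72 h kd. In 240 h ctrl it was at 48.7, 49.5 and 44.1 RPM and in 240 h kd at 261, 246 and 249.6 RPM, 5.30-fold higher on the fitted scale. Changes were 0.87 ± 0.07, 1.03 ± 0.06 and 2.41 ± 0.05. The summed trophoblast markers given above were higher than in ctrl at 72 h and 240 h kd and lower at 48 h kd, with a list median of -0.21 at 72 h, and their part was not tested.

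Tafa4, a secreted chemokine-like protein, was at 3.13, 3.61 and 2.56 RPM in 48 h ctrl and 13.5, 15.9 and 12.1 RPM in 48 h kd, and changed by 2.07, 0.97 and 1.18. Sorcs2, a sorting receptor for neurotrophin precursors, changed by 0.95, 1.33 and 2.09, and Ebf1, a transcription factor of B cell and neural development, by 1.22, 0.81 and 0.87. Scaper, linked to the cell cycle, changed by 0.72, 1.32 and 0.68, Megf11, a phagocytic receptor homologue, by 1.00, 1.48 and 0.66, and Ano3, of the anoctamin family, by 0.68, 1.46 and 0.76. Anks1b, a postsynaptic scaffold, changed by 0.84, 0.72 and 0.90. At 72 h Anks1b missed the threshold without 48 h ctrl replicate 3 (0.52) or 72 h kd replicate 2 (0.50). With no minimum on reads its limma call was lost at 48 h (adjusted p = 0.153) and 72 h (adjusted p = 0.165), and with no mean-variance trend at 72 h (adjusted p = 0.0541). Dnah7c (an axonemal dynein heavy chain) changed by 0.99, 0.77 and 1.26 and Lipo3 (a lipase) by 0.95, 0.74 and 1.13. Both have close paralogues, so the split of their reads is uncertain. Without 48 h ctrl replicate 3 Dnah7c missed the threshold at 72 h (0.58), and without 240 h kd replicate 1 Megf11 did at 240 h (0.55). With no read minimum the 48 h calls of Dnah7c (adjusted p = 0.0922 by limma) and Lipo3 (adjusted p = 0.0964) and the 72 h call of Dnah7c (adjusted p = 0.0761) were lost, and against 240 h ctrl the 72 h change of Dnah7c was 0.48. Beyond the 12, Dscaml1, Tanc2, Prkag2, 4930452B06Rik and Ttn were higher at each time, and Ncam1, Itga9 and Adamtsl1, which share more reads with other genes, were lower.

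**Figure D2:**
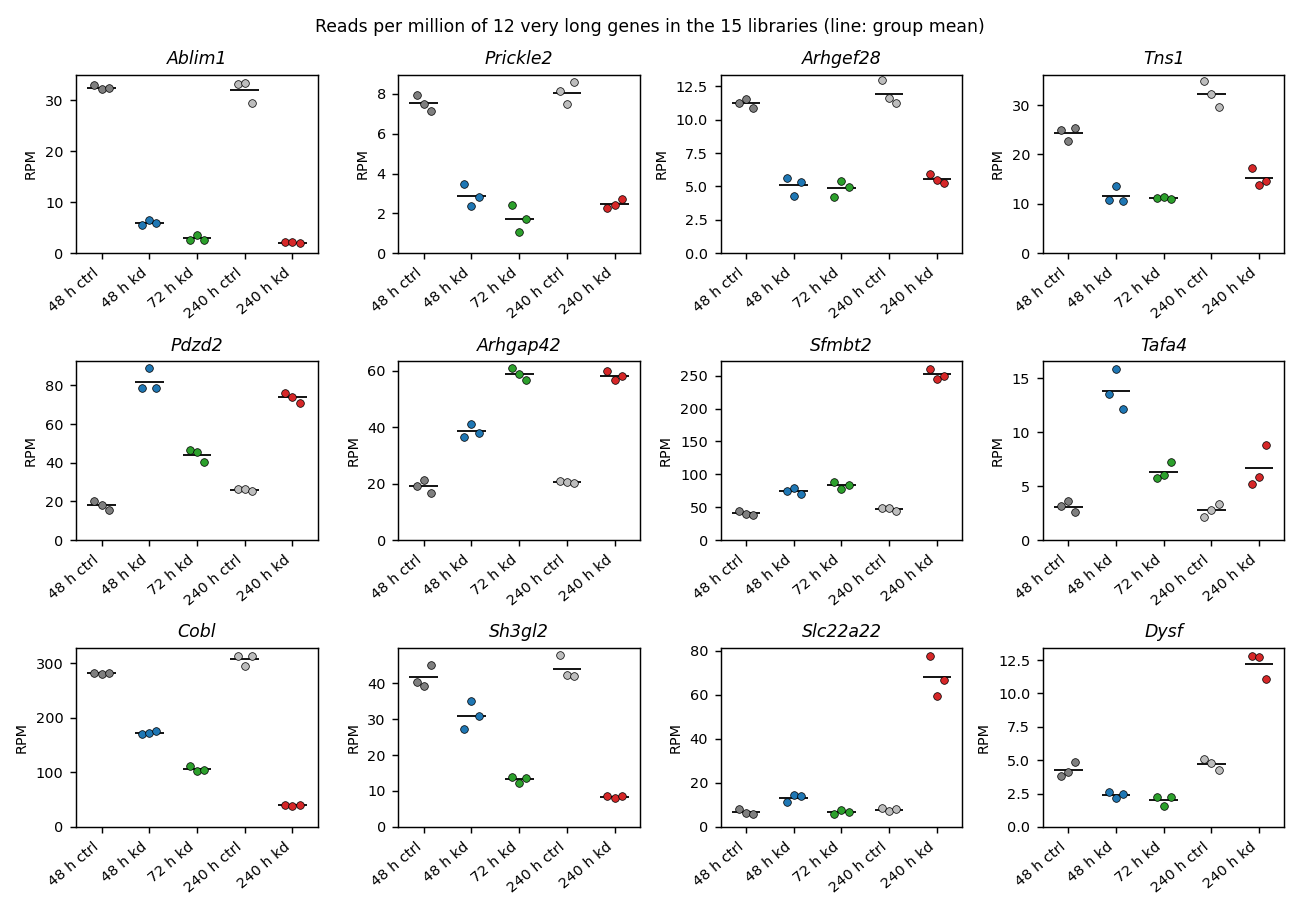
RPM of 12 members in the 15 libraries by group. Points are libraries and lines are group means, each panel with its own axis from 0. In the top row every kd library lies below every control, while Sfmbt2 and Slc22a22 are highest in 240 h kd and Cobl is lowest there.

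**Figure D3:**
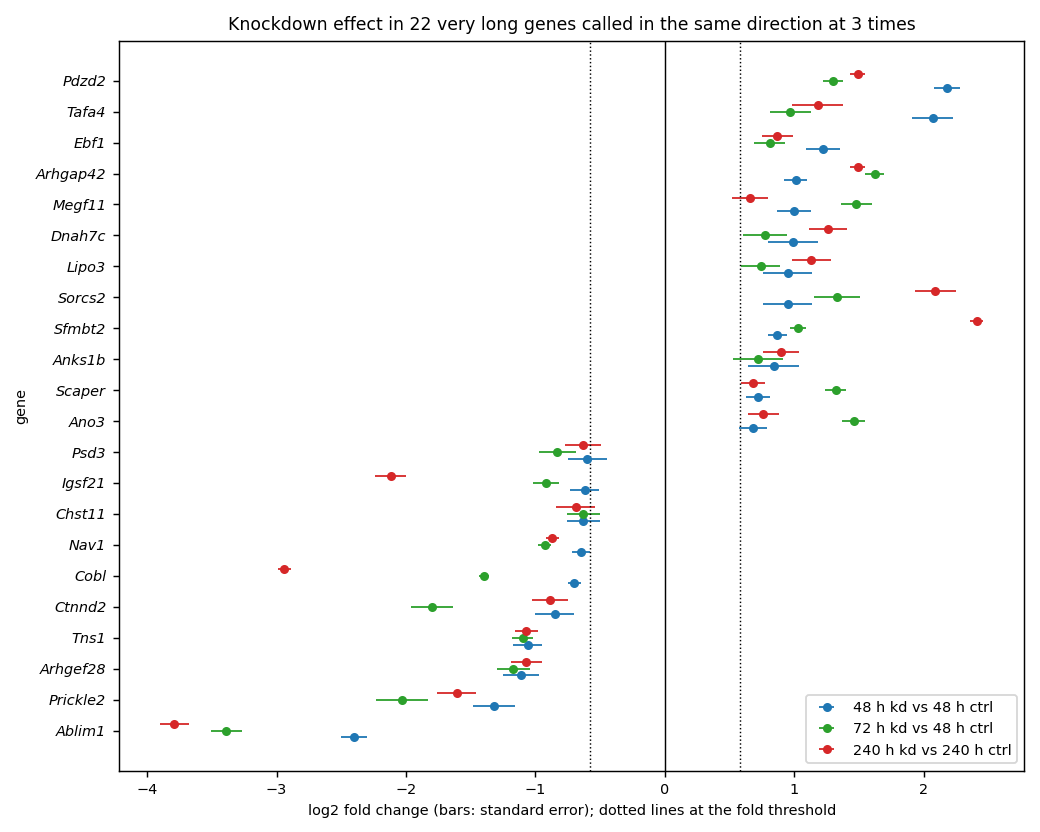
Log2 fold change with standard error at 48 h, 72 h and 240 h of 22 of the members called in the same direction at each time (10 lower and 12 higher), chosen by the minimum of their changes and by low overlap. The 48 h and 72 h values share their control libraries. Ablim1 reaches -3.79 and Sfmbt2 2.41 at 240 h.

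Among members with less than 25% overlap, the largest falls at 48 h were those of Ablim1, Gulp1 by -1.33 ± 0.19, Prickle2, Plekhg1 by -1.26 ± 0.20 and Farp1 by -1.14 ± 0.11. Gulp1 is an adaptor in the engulfment of dead cells, and Plekhg1 and Farp1 are guanine nucleotide exchange factors. Plekhg1 was at 6.49, 6.95 and 6.62 RPM in 48 h ctrl, 3.21, 3.15 and 1.81 RPM in 48 h kd and 1.41, 1.29 and 1.66 RPM in 72 h kd. At 240 h its ctrl and kd libraries overlapped, with 7.96, 7.06 and 6.88 RPM and 8.35, 6.61 and 6.32 RPM. The largest rises were those of Pdzd2, Tafa4, Samd12 by 1.34 ± 0.14, Ebf1 and Nrg1 by 1.05 ± 0.12. Nrg1 encodes neuregulin, a ligand of ErbB receptors. It was at 7.51, 6.13 and 6.27 RPM in 48 h ctrl, 12.9, 15.3 and 13.6 RPM in 48 h kd, 5.24, 4.61 and 6.85 RPM in 72 h kd, 7.96, 7.71 and 9.53 RPM in 240 h ctrl and 8.95, 8.89 and 9.99 RPM in 240 h kd, and only the 48 h change was called. The difference between its changes at 240 h and 48 h was -0.90 ± 0.17 (adjusted p = 0.000753).

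At 72 h the largest falls with the same limit on overlap were those of Ablim1, Dgki by -2.10 ± 0.17, Plekhg1 by -2.03 ± 0.17, Prickle2 and Ctnnd2. Dgki, a diacylglycerol kinase, was at 9.99, 8.66 and 8.74 RPM in 48 h ctrl and 2.42, 1.86 and 1.58 RPM in 72 h kd. The largest rises were those of Arhgap42, Megf11, Dscaml1 by 1.46 ± 0.12, Ano3 and Prdm16 by 1.41 ± 0.08. Dscaml1, a neuronal adhesion protein, was called at all 3 times, but at 48 h it missed the threshold without 48 h kd replicate 3 (0.45) or 48 h ctrl replicate 2 (0.59, adjusted p = 0.0568). Prdm16 (chromosome 4, 154316125 to 154636873), a zinc finger methyltransferase of brown fat and stem cells, was at 10.8, 9.74 and 11.2 RPM in 48 h ctrl, 18.7, 18.3 and 15.2 RPM in 48 h kd and 29.5, 28.5 and 27.6 RPM in 72 h kd. In 240 h ctrl it was at 11.7, 11.7 and 12.6 RPM and in 240 h kd at 9.79, 9.37 and 9.47 RPM, a change of -0.32 ± 0.10 that was not called.

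At 240 h, again with less than 25% overlap, the largest falls were those of Ablim1, Cobl, Sh3gl2 by -2.36 ± 0.08, Igsf21 and Nhs by -2.12 ± 0.12. Sh3gl2, an endophilin of synaptic vesicle recycling, was at 40.4, 39.3 and 45.2 RPM in 48 h ctrl, 27.2, 34.96 and 30.8 RPM in 48 h kd, 13.99, 12.3 and 13.6 RPM in 72 h kd, 47.8, 42.4 and 41.9 RPM in 240 h ctrl and 8.50, 7.92 and 8.59 RPM in 240 h kd. Nhs, an actin-remodelling protein of the X chromosome, was at 32.4, 32.4 and 26.8 RPM in 240 h ctrl and 5.54, 7.37 and 7.78 RPM in 240 h kd. The 240 h kd libraries of both genes lay below all others. The largest rises were those of Slc22a22 by 3.07 ± 0.10, Sfmbt2, Sorcs2, Greb1l by 2.01 ± 0.10 and Fbn2 by 1.67 ± 0.14.

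Slc22a22 (chromosome 15, 57243767 to 57477625), an organic anion transporter of prostaglandins, had the largest rise of any member in the 3 kd comparisons. It was at 8.16, 6.49 and 5.92 RPM in 48 h ctrl, 11.2, 14.3 and 13.9 RPM in 48 h kd, 6.02, 7.53 and 6.85 RPM in 72 h kd, 8.44, 7.06 and 8.05 RPM in 240 h ctrl and 77.5, 59.3 and 66.8 RPM in 240 h kd. The level was raised at 48 h, back in the range of ctrl at 72 h and 8.38-fold higher at 240 h on the fitted scale (adjusted p = 6.92e-14). Greb1l, a regulator of retinoic acid signalling, was at 5.71, 5.44 and 6.09 RPM in 240 h ctrl and 23.2, 22.5 and 25.9 RPM in 240 h kd, and Fbn2, a fibrillin of the extracellular matrix, at 4.10, 4.30 and 3.12 RPM and 12.4, 12.1 and 13.5 RPM. The summed fibroblast markers were also higher in 240 h kd, as given above.

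Whether the kd effect differed between 240 h and 48 h was tested as an interaction over 12 libraries. Of the members, 40 had a higher effect at 240 h and 58 a lower one, 7.92% and 11.5% against 5.49% and 5.03% of all genes tested, and without 48 h kd replicate 2 the counts were 43 and 49. Among members with less than 25% overlap the largest differences upwards were those of Slc22a22 (2.15 ± 0.18), Dysf (2.10 ± 0.20), Greb1l (1.91 ± 0.17), Malrd1 (1.62 ± 0.29) and Sfmbt2 (1.54 ± 0.09). Downwards they were those of Cobl, Samd12 (-1.97 ± 0.27), Tmem178b (-1.97 ± 0.21), Sh3gl2 (-1.93 ± 0.13) and Nhs (-1.85 ± 0.17). Malrd1, linked to bile acid metabolism, was at 8.38, 8.21 and 6.71 RPM in 48 h ctrl, 4.34, 8.95 and 6.14 RPM in 48 h kd, 11.1, 9.18 and 6.64 RPM in 240 h ctrl and 24.9, 19.9 and 22.2 RPM in 240 h kd.

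**Figure D4:**
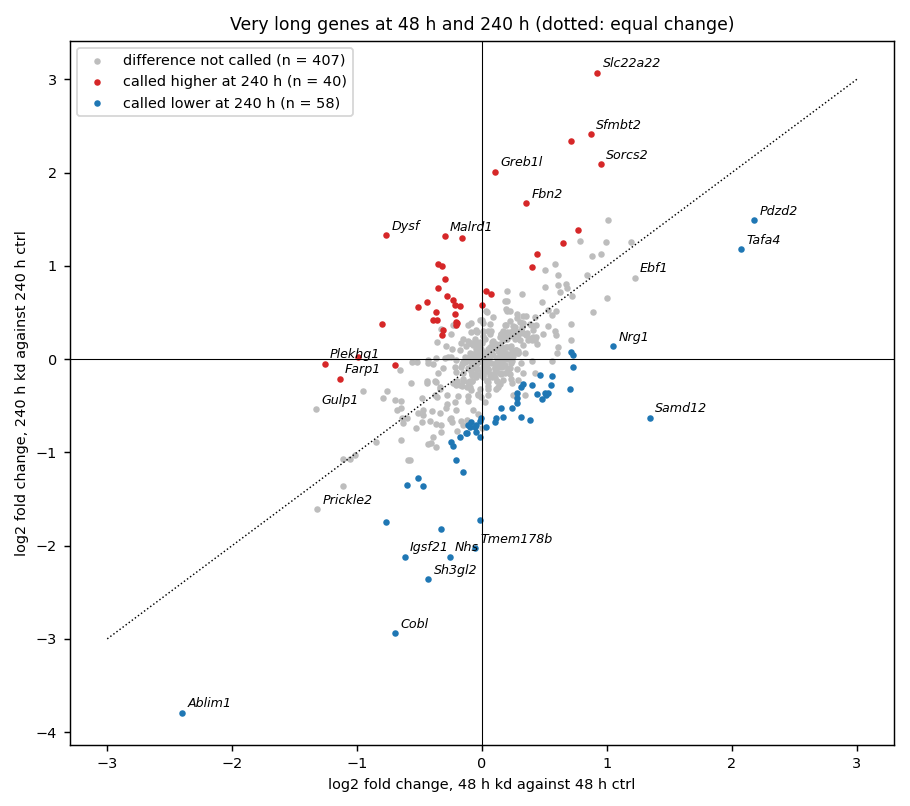
Log2 fold change of the 505 members at 48 h (horizontal) and 240 h (vertical). Red and blue points had an effect called higher (40) or lower (58) at 240 h than at 48 h. Samd12 and Dysf lie in the corners of opposite signs. Among the named points below the dotted line, Cobl, Sh3gl2 and Nhs fell further at 240 h, while Pdzd2 and Tafa4 rose at both times.

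In opposite directions at different times, 9 members were called, 1.78% of them, against 1.08% of all genes tested and 0.724% of those with at least 50 reads. Between 48 h and 240 h alone there were 2 such members and 59 such genes in all. The 5 described here had another listed gene at less than 25% of their reads and the largest changes both ways. Dysf, dysferlin of membrane repair, was at 3.79, 4.15 and 4.86 RPM in 48 h ctrl, 2.60, 2.13 and 2.44 RPM in 48 h kd, 2.27, 1.54 and 2.26 RPM in 72 h kd, 5.07, 4.79 and 4.30 RPM in 240 h ctrl and 12.8, 12.8 and 11.1 RPM in 240 h kd. At 48 h and 72 h it fell by 0.77 and 1.00 (log2) and it rose by 1.33 at 240 h. Samd12 rose by 1.34 and 1.37 and then fell by 0.63, from 4.98, 3.73 and 4.69 RPM to 3.72, 1.93 and 2.94 RPM, and this fall missed the threshold without 240 h ctrl replicate 1 (-0.55) or 240 h kd replicate 2 (-0.40). Mcc, named for its mutation in colorectal cancers, was at 22.4, 21.7 and 22.96 RPM in 48 h ctrl, 8.91, 8.58 and 8.21 RPM in 72 h kd, 25.1, 22.1 and 24.8 RPM in 240 h ctrl and 41.4, 35.5 and 40.02 RPM in 240 h kd. Its changes were -1.36 at 72 h and 0.70 at 240 h. Ptprd changed by -1.07 at 72 h and 1.00 at 240 h, and Fggy, a carbohydrate kinase, by 1.03 and -0.65. For Fggy the 240 h call was lost without 240 h ctrl replicate 2 (-0.55) or 240 h kd replicate 2 (-0.56). The difference between 72 h and 240 h was not tested. The 240 h falls of both Samd12 and Fggy were also lost with a pseudocount of 1 RPM (-0.52 and -0.56) and with no read minimum (adjusted p = 0.209 and 0.0604 by limma), and that of Samd12 with no mean-variance trend (adjusted p = 0.0781).

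Other named members lost a call under a changed setting of limma. With no read minimum the 48 h calls of Plekhg1 (adjusted p = 0.0537), Immp2l (0.0689), Lrp1b (0.071) and Dscaml1 (0.119) were lost, as was the 240 h call of Trpc5 (0.181, and 0.0658 with no trend). A pseudocount of 1 RPM ended the 48 h calls of Dscaml1 (0.55) and Adamtsl1 (-0.54). With 240 h ctrl as the control the 72 h changes of Dnah8 (-0.56), Gpc6 (-0.57), Gulp1 (-0.47) and Fbxl17 (-0.44) fell short of the fold threshold.

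The members were then sorted by role. Gene lists written from general knowledge placed 320 of the 505 members in at least 1 of 18 lists, and 185 in none. A gene can stand in several, and a list can miss a gene of its role or hold one of uncertain place. The lists were described by their counts and their median change, for which the median of all genes tested was 0.01 at 48 h and 72 h and 0.00 at 240 h. The shares of all genes tested called higher and lower, against which the counts can be read, were 4.26% and 4.78% at 48 h, 11.7% and 10% at 72 h and 8.92% and 7.89% at 240 h. Without 48 h kd replicate 2, a setting added after seeing the data, the 48 h counts became 2 higher and 6 lower for junctions and adhesion, 2 and 3 for neuronal, 2 and 1 for fragile site and 1 and 2 for kinase members. With none lower, 2 were higher in membrane traffic, 1 among channels and transporters and 1 in mitochondria and metabolism. The other lists with a 48 h count below had the same counts without it. The 48 h medians without it were 0.03 for the neuronal list, -0.09 for transcription factors, -0.07 for regulators of small GTPases, -0.10 for matrix, -0.10 for junctions and adhesion, 0.01 for the cytoskeleton, 0.06 for fragile sites and -0.22 for the Wnt to Hippo list.

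Of 37 members for cell junctions, polarity and adhesion, 3 were higher and 5 lower at 48 h, 4 and 13 at 72 h, and 4 and 10 at 240 h, with medians of -0.06, -0.09 and -0.11. Over the 101 genes of any length tested in this list, 9 were higher and 11 lower at 48 h, 12 and 30 at 72 h, and 19 and 14 at 240 h, with medians of -0.06, -0.12 and -0.03. The largest changes were those of Ncam1 (neural cell adhesion molecule), Prickle2, Ctnnd2 and Itga9 (an integrin). Ncam1 was at 24.4, 23.2 and 27.5 RPM in 48 h ctrl, 11.98, 12.9 and 9.66 RPM in 48 h kd, 4.06, 4.05 and 2.94 RPM in 72 h kd, 25.6, 28.3 and 24.2 RPM in 240 h ctrl and 9.03, 10.7 and 10.2 RPM in 240 h kd. It changed by -1.11 ± 0.12, -2.69 ± 0.12 and -1.36 ± 0.09, and the nested Gm11149 held reads equal to 42.4% of its own. Itga9 changed by -1.02 ± 0.09, -1.53 ± 0.07 and -1.03 ± 0.07, with an overlapping gene, Gm2415, at 36.6% of its reads.

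Of 39 cytoskeletal members, 1 was higher and 4 lower at 48 h, 2 and 7 at 72 h, and 2 and 9 at 240 h, with medians of -0.01, 0.03 and 0.03. Beside Ablim1 and Cobl the largest changes were those of Dnah8, a sperm axonemal dynein, by -0.65 at 72 h and -1.73 at 240 h, and of the dystrophin partner Sntb1 by 0.77 and 1.38 at 48 h and 240 h. Dnah8 overlaps Gm50252, whose own reads were 387% of those of Dnah8, and its values are uncertain. Of 43 regulators of small GTPases, 2 were higher and 5 lower at 48 h, 5 and 6 at 72 h, and 4 and 4 at 240 h, with medians of 0.00, 0.05 and 0.01. Srgap3, a Rac GTPase-activating protein of neurons, was called lower at 48 h (-0.99), with -0.21 and 0.02 later, and its difference between 240 h and 48 h was 1.01 ± 0.16.

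Of 32 transcription factor members, 2 were higher and 3 lower at 48 h, 2 and 7 at 72 h, and 2 and 8 at 240 h, with medians of -0.04, -0.24 and -0.31. The list as written also holds Ctnnd2, the LIM-domain protein Lmo7 and the noncoding Sox2ot. For the other 29 members, a count made after the values were seen, 2 were higher at each time and 2, 5 and 7 lower, with medians of -0.02, -0.21 and -0.32. Trps1, a GATA-type repressor, was at 71.3, 62.8 and 56.97 RPM in 48 h ctrl, 44.5, 57.8 and 50.02 RPM in 48 h kd, 32.8, 32.3 and 31.7 RPM in 72 h kd, 72.7, 68.4 and 66.2 RPM in 240 h ctrl and 21.6, 18.1 and 18.8 RPM in 240 h kd. It changed by -0.33 ± 0.10, -0.97 ± 0.07 and -1.82 ± 0.07, of which the last 2 were called. Nfib (a nuclear factor I protein) and Etv6 (an ETS factor) were also called lower at 72 h and 240 h, and Klf12 and Tcf4 at 240 h. Of 118 transcription factors of all lengths in the list, 7 were higher and 13 lower at 48 h, 11 and 26 at 72 h, and 13 and 21 at 240 h, with medians of -0.02, -0.07 and -0.06. Of 18 chromatin regulators, 2 were higher at each time, Sfmbt2 with Prdm16 at 48 h and 72 h and with Setbp1 (0.73) at 240 h. None was called lower by limma at 48 h, where 7 of the 18 had an unadjusted p-value under 0.05 in either direction, and 1 was lower at 72 h and 3 at 240 h. Baz2b, a bromodomain protein, was lower at 72 h (-0.60) and 240 h (-0.90), and the histone deacetylase gene Hdac4 and Mllt3, chosen after their values were seen, were the others lower at 240 h. At 72 h Baz2b missed the threshold without 48 h ctrl replicate 1 (-0.58) or 72 h kd replicate 1 (-0.57).

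Of 18 members for heparan sulfate, glycosylation and matrix, 1 was higher and 4 lower at 48 h, 2 and 5 at 72 h, and 2 and 6 at 240 h, with medians of -0.02, 0.03 and -0.12. Fbn1, fibrillin 1, was at 7.80, 7.31 and 8.48 RPM in 48 h ctrl, 4.25, 4.52 and 4.42 RPM in 48 h kd, 2.97, 2.10 and 1.81 RPM in 72 h kd, 11.9, 10.2 and 10.6 RPM in 240 h ctrl and 16.1, 13.8 and 13.1 RPM in 240 h kd. At 48 h and 72 h it fell by 0.80 and 1.70 (log2), and at 240 h changed by 0.38 with no call. Its relative Fbn2 changed by 0.35, with no call, and then rose by 0.77 and 1.67. Adamtsl1, a matrix glycoprotein, changed by -0.60, -1.71 and -1.35, but it overlaps Sh3gl2, which had 535% of its reads. Its 48 h call was lost without 48 h kd replicate 3 (-0.52) or 48 h ctrl replicate 1 (-0.55). Hs6st2, a heparan sulfate sulfotransferase, changed by 0.88 and 1.10 at 48 h and 240 h.

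Of 12 members in the list for the Wnt, TGF-β, Notch, Hedgehog and Hippo pathways, none was called higher by limma in any kd comparison. Counts lower were 2, 2 and 5 at 48 h, 72 h and 240 h, with medians of -0.17, -0.31 and -0.16. Of the 107 genes tested in this list at any length, 5 were higher and 15 lower at 48 h, 12 and 20 at 72 h, and 16 and 23 at 240 h, with medians of -0.07, -0.08 and 0.01. The glypicans Gpc3 and Gpc6, coreceptors for growth factors, were both lower at 240 h, by -0.74 and -0.93. Gpc3 was at 35.5, 39.4 and 41.2 RPM in 240 h ctrl and 22, 22.9 and 24.4 RPM in 240 h kd, and Gpc6 at 4.58, 4.79 and 4.69 RPM and 2.28, 2.14 and 2.64 RPM. The list as written also holds Tcf4, Fgfr2 and Fgf13, whose place there is uncertain. Tcf4, 1 of the 5 lower at 240 h, changed by -0.73.

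Of 25 neuronal and synaptic members, 3 were higher and 3 lower at 48 h, 2 and 6 at 72 h, and 3 and 5 at 240 h, with medians of 0.14, -0.21 and -0.06. In the whole list, 75 genes tested, the counts were 7 and 3, 7 and 19, and 23 and 8, and the medians 0.11, -0.21 and 0.16. The summed neural markers, which include Map2, were higher than ctrl at 48 h kd, lower at 72 h kd and higher at 240 h kd, while the medians of the single markers were -0.44, -0.88 and 0.26, and their part was not tested. Map2, a dendritic microtubule protein, fell by 0.70 at 48 h and by 1.35 at 72 h (log2), and at 240 h changed by -0.06 with no call. Of 22 members in the ion channel and transporter list, 2 were higher and none lower at 48 h, and 3 were higher and 4 lower at each later time. The list as written also holds Fto, Tmem135 and Tmem178b, whose place there is uncertain, and Tmem178b is among those lower at both later times. Abcc4, an exporter of cyclic nucleotides, was at 127, 127 and 124 RPM in 48 h ctrl and 267, 262 and 264 RPM in 72 h kd and rose by 1.07. Tmem178b fell by 1.28 and 2.03 at 72 h and 240 h, and the channel gene Trpc5 changed by -1.17 and -0.74. Its antisense Trpc5os held 30.1% of its reads, and the 240 h call was lost without 240 h kd replicate 3 (-0.55).

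Of 22 members at common fragile sites, 3 were higher and 1 lower at 48 h, none was higher and 5 were lower at 72 h, and 1 was higher and 4 were lower at 240 h, with medians of 0.08, -0.11 and -0.12. Among the 36 genes tested in the list whatever their length, 4 were higher and 1 lower at 48 h, none and 7 at 72 h, and 10 and 4 at 240 h, with medians of 0.15, -0.10 and 0.02. Lrp1b, a lipoprotein receptor, was at 7.14, 7.94 and 6.45 RPM in 48 h ctrl, 9.81, 13.1 and 13 RPM in 48 h kd and 4.84, 5.75 and 4.14 RPM in 72 h kd. Immp2l, a mitochondrial peptidase, was also higher at 48 h, by 0.73. Ank2, an ankyrin, changed by -0.97 and -0.89 at 72 h and 240 h, and Tenm3, a teneurin of axon wiring, by -1.12 and -0.60. At 240 h Tenm3 missed the threshold without 240 h ctrl replicate 1 (-0.58) or 240 h kd replicate 2 (-0.55).

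Of 29 kinase members, which include diacylglycerol kinases, 1 was higher and 1 lower at 48 h, 1 and 5 at 72 h, and 2 and 5 at 240 h. Prkce, protein kinase C epsilon, rose by 0.89 and 0.72 at 48 h and 72 h, and Map3k5, a stress-activated kinase, fell by 0.68 and 1.10 at these times. Dgkb, a diacylglycerol kinase, fell by 1.02 at 72 h. Of 13 phosphatase and phosphodiesterase members, none was higher by limma at 48 h or 72 h and 2 were at 240 h, Ptprd and Pde1c (0.99), while 1, 2 and 2 were lower. Phactr2 was the 1 lower at 48 h (-0.79), and Ppm1h was lower at 72 h (-0.91) and 240 h (-0.68, and -0.58 with no call without 240 h kd replicate 2).

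Few calls fell in the remaining groups. Of 26 members for membrane traffic, none was lower by limma in any kd comparison, and 3, 2 and 1 were higher. In the whole list of 92 genes tested, 5 were higher and 6 lower at 48 h, 9 and 10 at 72 h, and 4 and 5 at 240 h. The members called were Sorcs2 at each time, Dab1 (0.60) and Lrp1b (0.71) at 48 h, and the endosomal tether Vps8 (0.74) at 72 h. Dab1, an adaptor of reelin signalling, lost its call without 48 h kd replicate 2 (0.54), 48 h ctrl replicate 1 (0.58) or 48 h ctrl replicate 2 (0.57). Of 24 members for mitochondria and metabolism, 2 were higher and none lower at 48 h, 2 and 1 at 72 h, and none and 2 at 240 h. Cers6, a ceramide synthase, fell by 0.87 and 1.36 at 72 h and 240 h, and Pcca (a carboxylase subunit, overlapped by Ggact at 53.2% of its reads) rose by 0.74 at 72 h. Of 13 members in the list for RNA binding and processing, only Scaper was called, higher at each time. Of 8 members for ubiquitin and protein turnover 1 was called at 72 h (Fbxl17, -0.71) and none at 240 h. Of 12 genome maintenance members none was called by limma in the 3 kd comparisons, although 3, 6 and 5 had an unadjusted p-value under 0.05. The list of transcription elongation factors and topoisomerases held no member, and of its 52 genes of other lengths tested none was called at 48 h or 240 h and 3 were lower at 72 h. Where a list had no call in 1 direction, unadjusted p-values under 0.05 in either direction were still frequent. There were 12, 15 and 12 of 22 at 48 h, 72 h and 240 h in the fragile site list, 5, 9 and 9 of 12 in the Wnt to Hippo list, 13, 16 and 14 of 26 in membrane traffic, 6, 8 and 8 of 13 in the phosphatases, 6, 10 and 7 of 13 in RNA binding, 12, 17 and 11 of 24 in mitochondria and metabolism, 7 and 4 of 8 at 72 h and 240 h in protein turnover and 9 of 22 in the channels at 48 h.

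The remaining lists were also counted over genes of any length, in the order 48 h, 72 h and 240 h and with calls higher before calls lower. For 135 cytoskeletal genes the counts were 6 and 9, 14 and 16, and 13 and 15, and for 136 regulators of small GTPases 3 and 16, 12 and 20, and 13 and 19. For 116 chromatin regulators they were 4 and 1, 4 and 9, and 8 and 6, and for 97 genes of heparan sulfate, glycosylation and matrix 11 and 15, 17 and 19, and 19 and 19. Calls lower were as many as calls higher or more in these lists, except among chromatin regulators at 48 h and 240 h. For 134 kinases there were 3 and 12, 10 and 24, and 13 and 16, for 59 phosphatases and phosphodiesterases 3 and 8, 4 and 10, and 10 and 10, and for 102 channels and transporters 9 and 6, 12 and 27, and 13 and 15. For 126 genes of mitochondria and metabolism they were 4 and 7, 13 and 8, and 8 and 9, for 93 of RNA binding 4 and 2, 9 and 6, and 2 and 3, for 135 of protein turnover 6 and 2, 13 and 6, and 5 and 4, and for 101 of genome maintenance none, 2 and 5, and none.

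**Figure D5:**
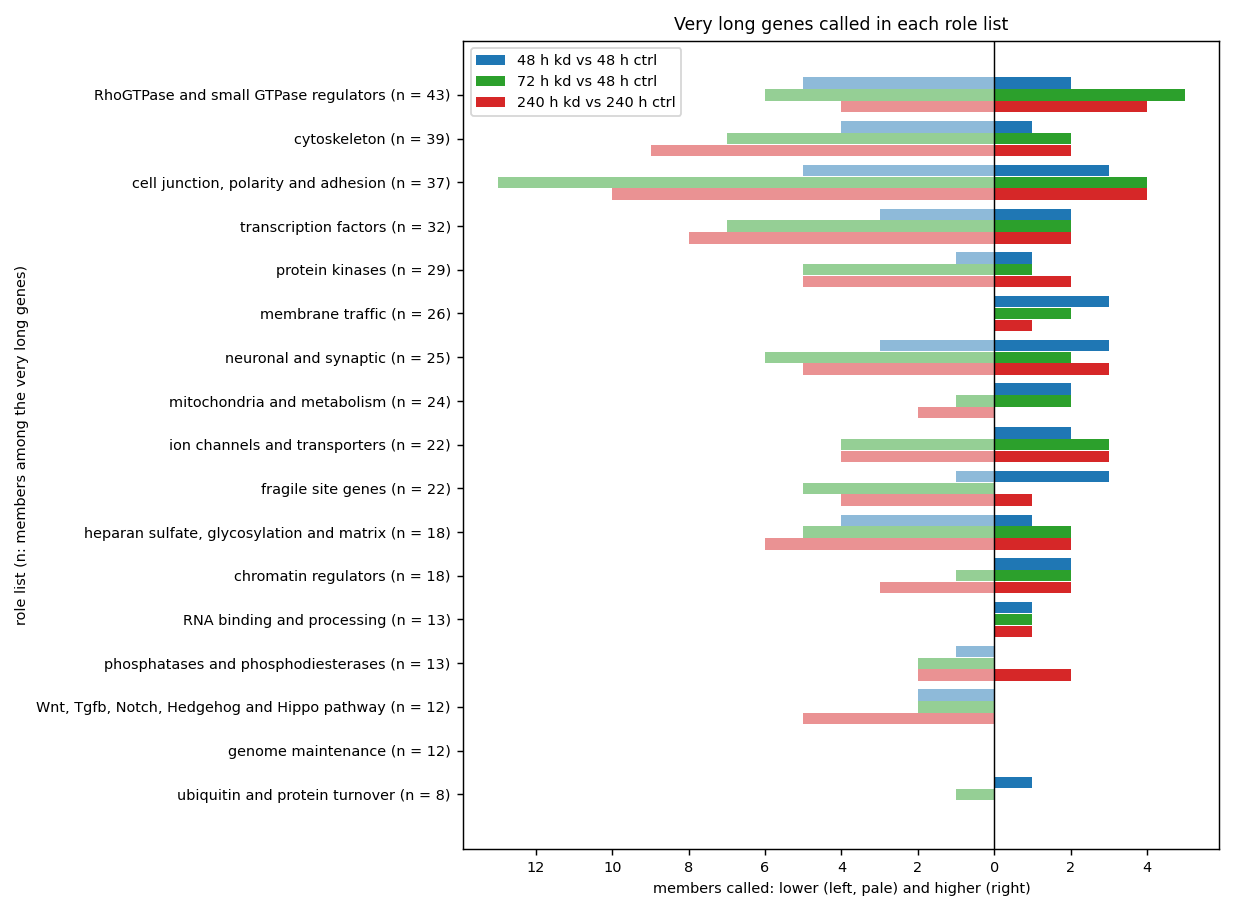
Number of members called higher (right) or lower (left, paler) in each role list at 48 h, 72 h and 240 h, with the number of members in brackets. The list for cell junctions, polarity and adhesion has 13 members lower at 72 h, and the membrane traffic list has members to the right only.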

How the data were processed

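RNA of the 15 libraries was sequenced as single reads on a NextSeq 500. Per the study's methods, the authors aligned reads with STAR 2.7.0c to mm10 (GRCm38) and counted them with GenomicRanges and Rsamtools. The deposited FPKM values were made by the authors over each gene's whole listed span. They are not counts, so limma on a log scale was the test, and DESeq2 1.30.0 was used by the authors only. Every FPKM × span was a whole multiple of its library's smallest step (tolerance 0.001 reads), which returned the reads, and RPM is FPKM × span in kb. Totals were 11074998 to 14515300 reads. A read may count for more than 1 gene and strand was not used. The annotation behind the spans is not given in the sources used here.

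Each comparison was fitted with limma 3.58.1 (R 4.3.3) to log2(RPM + 0.25), with a mean-variance trend and Benjamini-Hochberg adjustment over the 16370 genes averaging 10 reads or more, on the libraries compared, and the fitted fold change understates that of low genes. The interaction used the 12 libraries of 48 h and 240 h. Called genes had to pass both of the study's thresholds, 0.05 on the adjusted p-value and 0.58 on the size of the log2 fold change. The code was tested on simulated data. Genes were matched to GENCODE M21 (53297 of 55228 listed, 492 of 505 members), and promoters to RefSeq.

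The members and the 18 role lists were chosen with earlier results of these data known. Named genes were, for members with less than 25% of reads in an overlapping gene and no predicted symbol, the 5 largest falls and rises called at each time, up to 12 per direction called at all 3 times, 5 called in opposite directions and the 5 largest interactions in each direction, and, whatever the overlap, the 5 longest, the 5 most read, those at the edges of the rule and up to 4 called genes per list. Other names were chosen after their values were seen, and 1 gene that the rule named is not reported here. Alternatives varied the pseudocount, scale, minimum, normalization, trend, block, thresholds, control and libraries. Columns beside the FPKM values were used only for gene identity and position.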

Additional observations from a re-analysis of the deposited data

Results flagged for a closer look

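The kd effect differed between 240 h and 48 h, by the interaction test in limma at the same thresholds, for 37 of the genes named above. Values are the log2 fold change at 240 h minus that at 48 h, and the causes were not tested. Groups of 3 libraries were not tested for single outlying samples.

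Higher effects at 240 h were those of Slc22a22 (2.15), Dysf (2.10), Greb1l (1.91), Malrd1 (1.62), Sfmbt2 (1.54), Fbn2 (1.32), Ptprd (1.31), Plekhg1 (1.21), Fbn1 (1.18), Sorcs2 (1.13), Srgap3 (1.01), Farp1 (0.92), Map2 (0.64), Mcc (0.62), Sntb1 (0.61) and Pde1c (0.59). Plekhg1, Farp1, Fbn1, Map2 and Srgap3 had been called lower at 48 h and were not called at 240 h.

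Lower effects at 240 h were those of Cobl (-2.24), Samd12 (-1.97), Tmem178b (-1.97), Sh3gl2 (-1.93), Nhs (-1.85), Dnah8 (-1.71), Igsf21 (-1.50), Trps1 (-1.49), Ablim1 (-1.39), Fggy (-1.03), Prdm16 (-1.02), Nrg1 (-0.90), Tafa4 (-0.90), Cers6 (-0.89), Immp2l (-0.81), Adamtsl1 (-0.75), Gpc6 (-0.70), Pdzd2 (-0.69), Tcf4 (-0.67), Ank2 (-0.64) and Lrp1b (-0.63).

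Some of these calls were lost when 1 library was left out. The interaction of Map2 was 0.54 without 240 h kd replicate 2, and that of Pdzd2 was -0.58 without 48 h ctrl replicate 3. Ank2 was not called without 48 h kd replicate 2 (-0.57), 48 h ctrl replicate 3 (-0.56) or 240 h ctrl replicate 1 (-0.58). Mcc was not called without 48 h kd replicate 1 (0.56), 240 h ctrl replicate 2 (0.57) or 240 h kd replicate 1 (0.58). Lrp1b and Pde1c each lost the call without any of 7 libraries, and Sntb1 and Tafa4 without any of 5, with values of -0.63 to -0.48, 0.50 to 0.57, 0.56 to 0.58 and -0.89 to -0.75. With a pseudocount of 1 RPM the interactions of Gpc6 (-0.56), Pde1c (0.54) and Sntb1 (0.58) were not called. With no read minimum those of Lrp1b (adjusted p = 0.115 by limma), Pde1c (0.0792) and Tafa4 (0.128) were not, and with no mean-variance trend those of Lrp1b (0.0584) and Tafa4 (0.0631). Tafa4 also missed the threshold with limma voom on the recovered reads (adjusted p = 0.0502).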

How the results depend on the processing

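On log2(FPKM + 0.1), which changes both the scale and the size of the pseudocount, there were 4 calls at 48 h, 13 at 72 h, 18 at 240 h, 0 between the controls, 3 in 72 h kd against 48 h kd and 12 in the interaction. A pseudocount of 0.1 FPKM is above the level of most members. With a minimum of 0.5 FPKM as well, 31 to 35 members were tested, with 1, 3, 2, 0, 1 and 4 calls in the same order. Without a fold threshold there were 198, 335, 291, 105, 273 and 164. Between the controls, a pseudocount of 1 RPM gave 3 calls, no minimum 2, an adjusted p-value under 0.01 3 and no trend 0. At an unadjusted p-value under 0.05 there were 161 members with no trend, 114 on log2(FPKM + 0.1) and 12 with the FPKM minimum.

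Leaving out 1 library gave 62 to 76 calls at 48 h, 114 to 122 at 72 h, 107 to 118 at 240 h, 3 to 9 between the controls, 62 to 76 in 72 h kd against 48 h kd and 87 to 97 in the interaction. The median change of members of 500 kb or more, a measure chosen after seeing the data, ranged from -0.15 to -0.11 for 72 h kd against 48 h ctrl and from -0.23 to -0.15 against 48 h kd. It was -0.03 and -0.04 on log2(FPKM + 0.1), 0.10 and 0.25 in the 2 such genes over 0.5 FPKM, and, against ctrl, -0.18 after quantile normalization and -0.08 with 240 h ctrl as the control. The change of Chst11 at 72 h was 0.02 with that control, where 60 members were higher and 72 lower.

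Same-numbered libraries had correlations of -0.21 to 0.19, and differently numbered ones of -0.201 to 0.282. These like ranges cannot settle whether replicate numbers pair the libraries. With the replicate block there were 66, 117, 118, 5, 71 and 97 calls. For named genes, with libraries left out, 2338 values kept their direction and side of the thresholds, 65 lost and 27 gained a call. Under the other alternatives 3454 kept both, 203 lost and 12 gained a call and 1 changed sign. Members near 50 reads per library rest on few reads.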
